A study of Mus musculus with 6 samples.

Results

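The mRNA levels of 58 genes of DNA replication and mitosis were compared between *Pax9*-null and wild-type mouse embryos, by the phase of the cell cycle in which their products act, as a readout of proliferation in the pharyngeal region. The genes came from a list of 59 symbols matched to a table of 14647 genes. The list held 34 genes of G1, the G1/S switch and DNA replication (G1/S members) and 25 genes of G2 and mitosis (G2/M members), of which *Kif11* was not analysed here, which left 24. All 58 had a mean of at least 0.5 RPKM (reads scaled by exon length and by library size) over the libraries, the level set for testing, and the 58 means ran from 3.90 RPKM for *E2f2* to 200 RPKM for *Cdk4*.

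Libraries were made from the pharyngeal region at embryonic day (E) 9.5, which was dissected from the boundary of the first and second arches down to the base of the heart. A group of 3 embryos homozygous for a *Pax9* null allele (*Pax9*-/-) was compared with 3 *Pax9*+/+ embryos that had been matched for somite number, on a C57Bl/6J background with both sexes among them. The null allele was present in every cell of the embryo, whereas *Pax9* itself is a transcription factor of the pharyngeal endoderm, so the dissected piece pooled that epithelium with ectoderm, mesoderm, neural crest, vessels and blood. Values were log2 RPKM, and a fold change is the *Pax9*-null mean minus the wild-type mean on that scale.

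The log2 level of *Pax9* was -0.43, -0.63 and -0.59 in the 3 *Pax9*-null libraries and 0.63, 0.71 and 0.96 in the wild-type libraries, a log2 fold change of -1.32 (adjusted p = 0.0155, limma). Reads were recovered from the values (37 to 123 for *Pax9*). The effective library sizes, which scale the values and are not read counts, lay between 11509900 and 12692323. The recovered reads themselves ran from 11697195 in *Pax9*-null 2 to 12761493 in wild-type 1. Markers of pharyngeal endoderm and of neural crest and arch mesenchyme were present in all 6 libraries, with summed levels of 141 to 230 RPKM and 70.3 to 83.2 RPKM. *Twist1* held much of the latter sum, with a mean of 50.2 RPKM. Much of the endoderm sum came from *Krt18*, *Krt8* and *Epcam*, with means of 75.2, 61.2 and 33.4 RPKM. The means of the other endoderm markers ran from 0.86 RPKM for *Pax1* to 7.49 RPKM for *Cdh1*. A pair of wild-type libraries stood apart. Wild-type 3 held 71.1 RPKM in the sum of 8 cardiomyocyte markers where the other 5 libraries held 1172 to 1555 RPKM. Wild-type 1 was the highest or the lowest of the 6 libraries for 39 of the 58 members (21 highest, 18 lowest), against 6 to 31 members for each of the other 5 libraries. The counts of calls and the fold changes were therefore also computed without each of the 6 libraries.

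A cell enters the cycle when D-type cyclins with *Cdk4* or *Cdk6*, followed by E-type cyclins with *Cdk2*, release E2F transcription factors from the retinoblastoma proteins. E2F factors drive the genes that license replication origins, open the DNA and copy it. Mitotic genes are switched on later by a complex with B-Myb and *Foxm1*, through CHR elements in promoters that often hold CCAAT boxes too. The transcripts of such genes are abundant in tissues with many cycling cells, such as the growing pharyngeal arches, and fall when cells leave the cycle. In a bulk sample, fewer cycling cells and less of an mRNA in each cell cannot be told apart.

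The promoters of the members carried these letters according to phase. A RefSeq promoter (250 bases before to 50 bases after the start, GRCm38.p6) was found for 45 of the 58 members, 50 promoters in all. An E2F motif (TTTCCCGC, TTTGGCGC or TTTCGCGC on either strand) was in 37.9% of the 29 promoters of G1/S members and in 9.5% of the 21 promoters of G2/M members, against 1.8% of all 32851 promoters of the same length. The CHR letters (TTTGAA on either strand) were in 76.2% of G2/M promoters, 10.3% of G1/S promoters and 17.9% of all promoters. CCAAT on either strand was in 85.7%, 65.5% and 37.4%, respectively. No searched motif contains another.

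The sequences below show these motifs in place. They are the 150 bases before the start of 3 members of each phase. Each of these members had 1 promoter in the table and held the motif of its phase in that stretch. At most 50 bases of a stretch were allowed to lie in exons. The 6 are examples, given within each phase in order of decreasing size of fold change. *Mki67* had the largest change of the G2/M members. For each of the others, some members of the same phase with larger changes are not shown. Each sequence is written 5′ to 3′ on the strand of the gene, and positions count back from -1 at the last base. Capitals mark every E2F, CHR and CCAAT match on either strand, and a match on the other strand shows as the reverse complement of its letters. The E2F match started at -27 in *Orc1* (chr4:108579304-108579453, plus strand), at -138 in *Cdc6* (chr11:98908001-98908150, plus strand) and at -140 in *Cdk2* (chr10:128705052-128705201, minus strand). The CHR letters started at -116 and -98 in *Mki67* (chr7:135716380-135716529, minus strand), at -18 in *Cdc20* (chr4:118437344-118437493, minus strand) and at -30 in *Ncapg* (chr5:45669775-45669924, plus strand). In GENCODE M21, 31 bases of the *Orc1* stretch, 9 of *Cdc20* and 6 of *Ncapg* lie in an exon of the gene, and 0 of the other 3.
Orc1: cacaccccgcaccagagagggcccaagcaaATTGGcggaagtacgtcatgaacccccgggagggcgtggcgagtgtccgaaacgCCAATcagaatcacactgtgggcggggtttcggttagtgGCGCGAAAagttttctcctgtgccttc
Cdc6: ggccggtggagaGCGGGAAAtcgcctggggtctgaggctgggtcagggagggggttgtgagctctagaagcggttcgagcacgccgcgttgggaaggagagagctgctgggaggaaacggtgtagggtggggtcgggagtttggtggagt
Cdk2: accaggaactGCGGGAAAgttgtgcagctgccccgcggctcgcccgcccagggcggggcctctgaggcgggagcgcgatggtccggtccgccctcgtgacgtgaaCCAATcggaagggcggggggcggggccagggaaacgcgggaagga
Mki67: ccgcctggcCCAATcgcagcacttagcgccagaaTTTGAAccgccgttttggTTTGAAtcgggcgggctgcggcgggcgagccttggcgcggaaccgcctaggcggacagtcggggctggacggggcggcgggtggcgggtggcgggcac
Cdc20: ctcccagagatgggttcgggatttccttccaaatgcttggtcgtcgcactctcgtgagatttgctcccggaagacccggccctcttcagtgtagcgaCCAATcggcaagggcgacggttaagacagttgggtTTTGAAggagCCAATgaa
Ncapg: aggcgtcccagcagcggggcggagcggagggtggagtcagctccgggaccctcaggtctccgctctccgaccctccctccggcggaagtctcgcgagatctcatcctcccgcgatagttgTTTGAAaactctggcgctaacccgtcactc

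Members of both phases went in both directions. Of the 34 G1/S members, 9 passed the test (limma, Benjamini-Hochberg adjusted p of at most 0.1 over all genes): 7 had risen and 2 had fallen in *Pax9*-null embryos. Of the 24 G2/M members, 7 passed, and here 2 had risen and 5 had fallen. The test called 26.7% of all 13547 genes tested, 14.7% higher and 12.0% lower, and the members' 27.6% was close to that background. At an unadjusted p under 0.05 (limma) stood 14 G1/S and 12 G2/M members, and 4750 of all genes tested. The 3 libraries of each genotype did not overlap for 29 members (15 higher, 14 lower), where 41.9% of all genes did not overlap. The median log2 fold change was -0.05 for G1/S and 0.01 for G2/M members, beside -0.0012 for all genes.

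**Figure D1:**
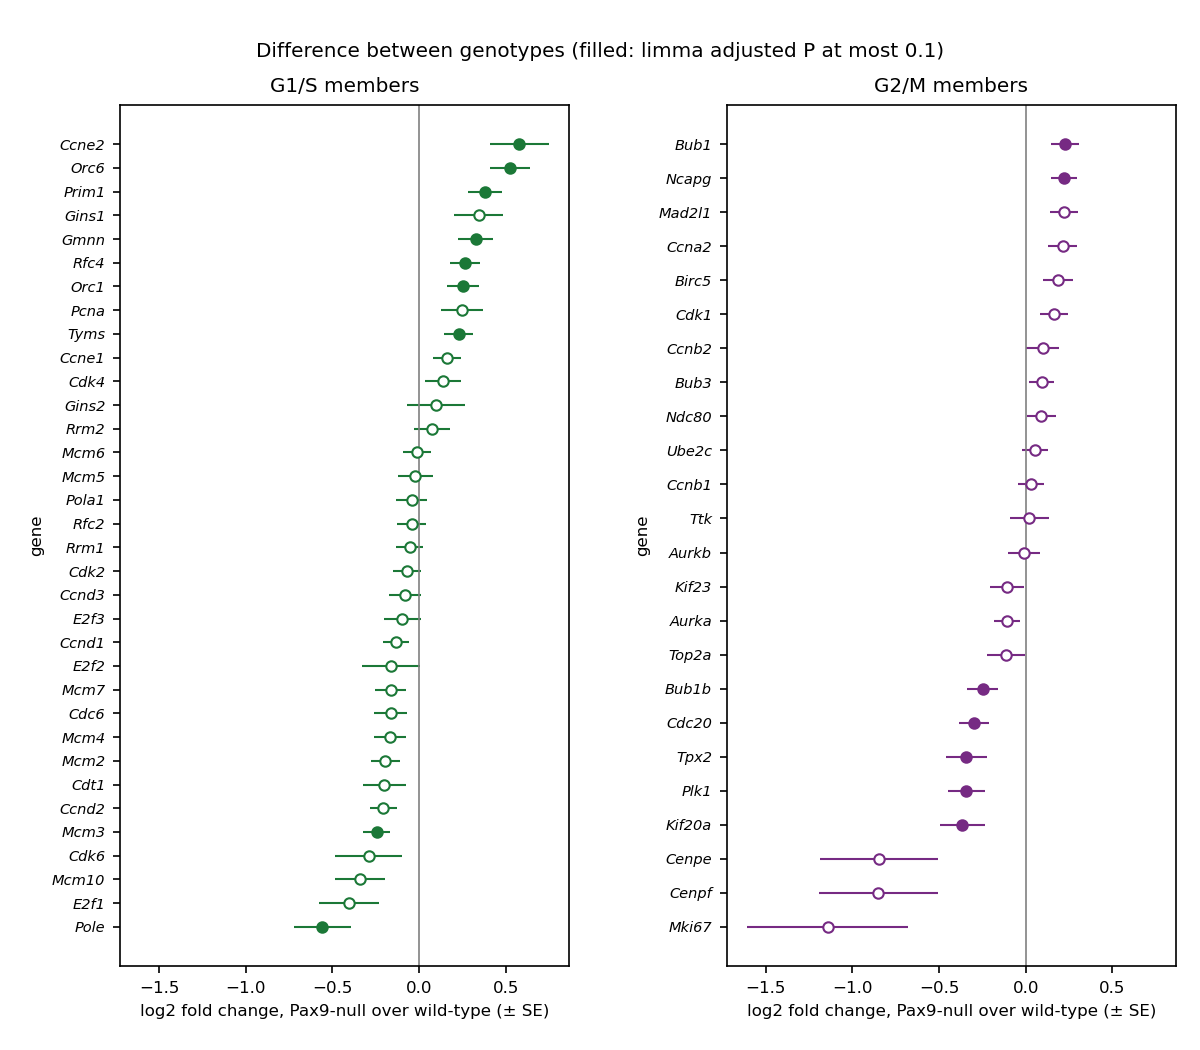
Log2 fold change of each member, *Pax9*-null over wild-type (horizontal axis), with its standard error from limma, for G1/S members (left, green) and G2/M members (right, purple); filled points passed the test. The G1/S members spread on both sides of 0, from -0.56 for *Pole* to 0.58 for *Ccne2*, and the G2/M members run from -1.14 for *Mki67*, with the widest error, to 0.23 for *Bub1*.

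The calls depended on single libraries. Without *Pax9*-null 1 or without *Pax9*-null 3, 0 members of either phase were called by limma (at an unadjusted p under 0.05, 5 and 9 G1/S members and 3 and 5 G2/M members), although all genes also gave only 298 and 168 calls in those fits. At that unadjusted level stood 2901 of 13550 and 3591 of 13549 genes, respectively. Without wild-type 1 the calls were 2 G1/S and 0 G2/M members (9 of these 24 at an unadjusted p under 0.05, where 3804 of 13521 genes were). Without wild-type 3 they were 3 and 2, and without *Pax9*-null 2 the G2/M calls were 2. All genes gave 1799, 2146 and 3050 calls in these fits. *Orc6* and *Prim1* were called in 4 of the 6 fits that left out a library, *Ccne2* in 3, and the other 13 called members in 0 to 2. The directions of the calls depended on the scaling: with quantile normalization 3 G1/S members were called higher and 8 lower and 0 G2/M members higher and 6 lower, and after median centring of the libraries these counts were 7 and 1, and 3 and 4. Fold changes also varied with exon length and GC content, and values with these trends removed from each library are given where they move a statement.

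The mean over the members gave the same picture. The 34 G1/S members averaged 5.19, 5.18 and 5.24 log2 RPKM in the *Pax9*-null libraries and 5.17, 5.21 and 5.24 in the wild-type libraries, and the groups overlapped throughout. The 24 G2/M members averaged 5.46, 5.49 and 5.46 in the *Pax9*-null and 5.77, 5.52 and 5.52 in the wild-type libraries, so that wild-type 1 stood above the rest of its group, which lay just above the *Pax9*-null range. The balance of the phases, G2/M minus G1/S, was 0.26, 0.31 and 0.22 in the *Pax9*-null and 0.60, 0.31 and 0.28 in the wild-type libraries. The mean balance was 0.27 ± 0.05 (SD, n = 3) against 0.40 ± 0.18 (SD, n = 3), a difference of -0.13 that became -0.03 without wild-type 1. The ranges of the balance overlapped, since *Pax9*-null 2 lay above wild-type 2 and wild-type 3.

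**Figure D2:**
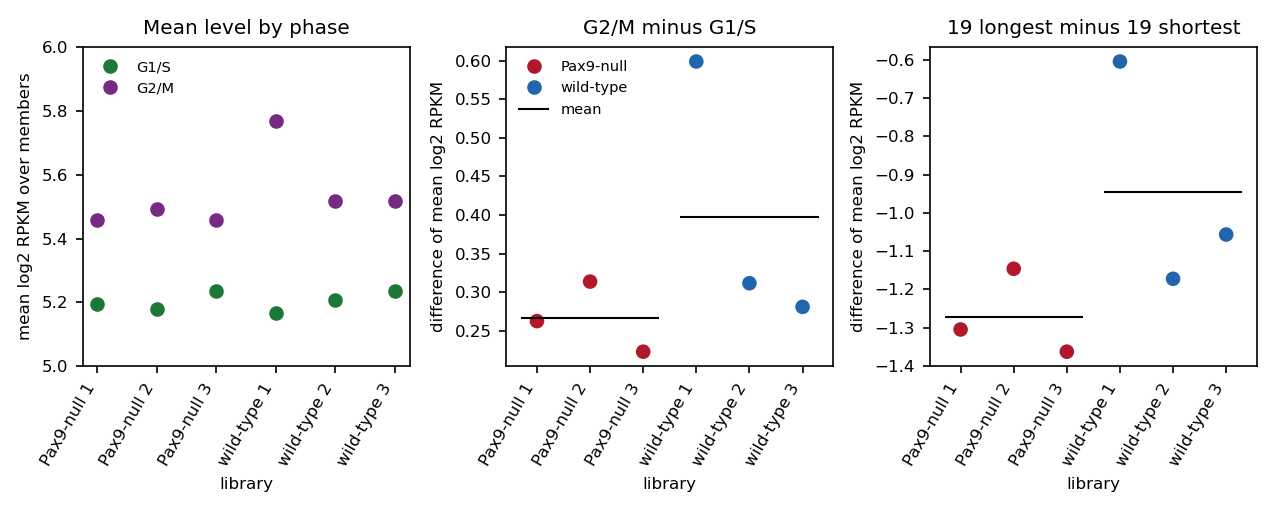
Left, mean log2 RPKM over the G1/S members (green) and the G2/M members (purple) in each library; middle, their difference, G2/M minus G1/S; right, mean log2 RPKM of the 19 members with the longest exons minus that of the 19 with the shortest. In the middle and right panels red points are *Pax9*-null, blue points wild-type and lines group means. Wild-type 1 lies apart for the G2/M members on the left, at 0.60 in the middle and at -0.60 on the right, where the other 5 libraries lie between 0.22 and 0.31 and between -1.36 and -1.06.

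The D-type cyclins, which carry growth signals into the cycle, had lower means in *Pax9*-null embryos in the deposited values, whereas with the trends removed *Ccnd1*, *Ccnd2* and *Ccnd3* were at -0.02, -0.03 and 0.45, and 0 of the 5 genes of this step passed the limma test (1 at an unadjusted p under 0.05). *Ccnd2* was at 5.85, 5.95 and 5.88 in the *Pax9*-null and 6.17, 6.06 and 6.07 in the wild-type libraries, without overlap (log2 fold change -0.21 ± 0.08 SE, adjusted p = 0.107, limma). *Ccnd1* was at 5.58, 5.58 and 5.56 against 5.66, 5.67 and 5.78, a narrow gap that was also free of overlap (-0.13, adjusted p = 0.246). *Ccnd3*, at 3.50, 3.45 and 3.52 against 3.48, 3.68 and 3.56, overlapped. *Cdk6*, the lower expressed of the kinases, was at 2.07, 2.18 and 1.75 against 2.63, 2.02 and 2.22 (-0.29, adjusted p = 0.312), and wild-type 2 lay among the *Pax9*-null libraries. *Cdk4* had a log2 fold change of 0.14 (adjusted p = 0.365) that became -0.14 with quantile normalization.

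At the G1/S switch the E-type cyclins, which activate *Cdk2*, had higher means and the E2F activators lower means in *Pax9*-null embryos, and 1 of 6 genes passed. *Ccne2* (chr4:11191351-11204779, GENCODE M21 on GRCm38) had the highest fold change of the 58 members. It was at 5.82, 5.59 and 6.10 in the *Pax9*-null and 4.94, 5.46 and 5.38 in the wild-type libraries, 149% of wild-type on the linear scale (0.58 ± 0.17, adjusted p = 0.0639, limma). The groups did not overlap, with wild-type 1 the lowest, and without that library the value was 0.42 (adjusted p = 0.116). *Ccne1* was at 5.73, 5.67 and 5.71 against 5.65, 5.48 and 5.49, also without overlap (0.16, adjusted p = 0.195). *E2f1*, an activator of replication genes, was at 2.75, 2.34 and 2.78 against 2.82, 2.95 and 3.31. These groups were only just apart, and the log2 fold change of -0.40 did not pass (adjusted p = 0.139, 183 to 392 reads). *E2f2*, at 1.80, 1.75 and 2.06 against 2.03, 1.79 and 2.28, and *E2f3*, at 4.10, 4.20 and 4.11 against 4.39, 4.04 and 4.27, overlapped. With the trends removed *E2f1*, *E2f2* and *E2f3* were at -0.16, 0.20 and 0.01. *Cdk2* had a log2 fold change of -0.07.

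Of 14 genes of origin licensing and the helicase, 3 rose and 1 fell. Those that rose were *Orc6* and *Orc1*, subunits of the origin recognition complex, and *Gmnn*, the inhibitor of *Cdt1*, and the helicase subunit *Mcm3* fell. *Orc6* (chr8:85299632-85308278) was at 6.28, 6.07 and 6.37 in the *Pax9*-null and 5.56, 5.86 and 5.73 in the wild-type libraries, 144% of wild-type (0.53 ± 0.11, adjusted p = 0.0414), the only member called at a threshold of 0.05. *Gmnn* was at 6.37, 6.17 and 6.28 against 5.78, 6.03 and 6.04 (0.33, adjusted p = 0.0729), without overlap, but at 0.03 with the trends removed (adjusted p = 0.849). *Orc1*, the largest subunit of the complex, rose by less (0.25, adjusted p = 0.0995), and was called in 0 of the 6 limma fits that left out a library (adjusted p from 0.128 to 0.216). *Cdc6* and *Cdt1*, which load the helicase, had log2 fold changes of -0.16 and -0.20 (adjusted p = 0.245 and 0.280).

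The 6 subunits of the replicative helicase are needed in equal number, and 5 of the 6 did not pass. *Mcm3* fell: it was at 6.40, 6.51 and 6.43 in the *Pax9*-null and 6.70, 6.72 and 6.66 in the wild-type libraries, 84.4% of wild-type (-0.25 ± 0.08, adjusted p = 0.0735). Its groups did not overlap, nor did those of *Mcm2*, at 5.37, 5.45 and 5.54 against 5.58, 5.71 and 5.65 (-0.19, adjusted p = 0.140). *Mcm4*, at 6.63, 6.77 and 6.55 against 6.90, 6.78 and 6.77, overlapped because *Pax9*-null 2 was level with wild-type 2 and wild-type 3 (-0.17). *Mcm7*, at 6.42, 6.56 and 6.61 against 6.60, 6.75 and 6.73, overlapped because *Pax9*-null 3 lay just above wild-type 1 (-0.16). *Mcm5*, at 6.68, 6.76 and 6.93 against 6.70, 6.88 and 6.85, and *Mcm6*, at 7.07, 7.03 and 6.96 against 6.97, 7.08 and 7.04, hardly differed between genotypes (-0.02 and -0.01), and both turned to 0.01 and 0.02 after median centring of the libraries. With the trends removed *Mcm2*, *Mcm5* and *Mcm7* were at 0.09, 0.08 and 0.04. *Mcm10*, which joins the helicase at activation, was at 3.62, 3.86 and 3.77 against 4.39, 3.87 and 4.01 (-0.34, adjusted p = 0.136), with wild-type 1 far above and wild-type 2 level with *Pax9*-null 2, and was called without wild-type 2 (adjusted p = 0.0834) and was at -0.19 without wild-type 1 (adjusted p = 0.283). *Gins1*, a subunit of the active helicase, was at 5.66, 5.42 and 5.90 against 5.13, 5.39 and 5.43 (0.34, adjusted p = 0.124). It was called without *Pax9*-null 2 (0.46, adjusted p = 0.0755), was at 0.22 without *Pax9*-null 3 (adjusted p = 0.304) and was at -0.01 with the trends removed. Its partner *Gins2* had a value of 0.10, or -0.08 without wild-type 1. In *Gins2*, 67.3% of the exon bases also belong to an exon of *Gse1* on the other strand.

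Genes of DNA synthesis went both ways. Of 6 genes of the polymerases and their clamp, 2 rose and 1 fell. *Prim1*, the primase subunit that lays the first bases of each new strand (chr10:128015168-128030037), was at 5.49, 5.27 and 5.41 in the *Pax9*-null and 4.86, 5.12 and 5.05 in the wild-type libraries, 130% of wild-type (0.38 ± 0.10, adjusted p = 0.0507). *Pole*, the catalytic subunit of the leading-strand polymerase (chr5:110286306-110337474), was at 2.91, 3.16 and 3.0 against 3.90, 3.27 and 3.58, 67.8% of wild-type (-0.56 ± 0.16, adjusted p = 0.0636). Neither pair of groups overlapped, and wild-type 1 was the most distant wild-type library in both: without it the value was 0.31 for *Prim1* (adjusted p = 0.0955) and -0.40 for *Pole* (adjusted p = 0.117). *Rfc4*, of the clamp loader, rose (0.27, adjusted p = 0.0806), while *Rfc2* and *Pola1* were at -0.04. *Pcna*, the sliding clamp and a common marker of proliferation, was at 7.79, 7.60 and 7.69 against 7.23, 7.63 and 7.47. Its groups overlapped, since wild-type 2 lay above *Pax9*-null 2, and its value of 0.25 (adjusted p = 0.188) became -0.01 with quantile normalization and 0.004 with the trends removed. It was called without wild-type 2 (0.34, adjusted p = 0.0921) and was at 0.14 without wild-type 1 (adjusted p = 0.385). Of the enzymes that supply nucleotides, *Tyms* rose (0.23, adjusted p = 0.0967), and the ribonucleotide reductase subunits *Rrm1* and *Rrm2* were at -0.05 and 0.07.

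Among the G2/M members, the cyclins and kinase that start mitosis had means no lower in *Pax9*-null embryos on the deposited scale. All 4 had positive values as deposited but negative ones with quantile normalization (-0.01 for *Ccna2*, -0.02 for *Cdk1*, -0.18 for *Ccnb1* and -0.10 for *Ccnb2*) and, for *Ccnb1* and *Ccnb2*, with the trends removed (-0.13 and -0.19), and 0 passed the limma test (1 at an unadjusted p under 0.05). *Ccna2* was at 6.89, 6.76 and 6.77 in the *Pax9*-null and 6.58, 6.66 and 6.54 in the wild-type libraries, without overlap (0.21 ± 0.08, adjusted p = 0.116). *Cdk1*, its kinase partner, was at 6.40, 6.25 and 6.33 against 6.17, 6.23 and 6.10, also without overlap (0.16, adjusted p = 0.199). *Ccnb1*, the main mitotic cyclin, was at 6.74, 6.63 and 6.68 against 6.64, 6.66 and 6.65 and overlapped (0.03, adjusted p = 0.811), as did *Ccnb2* (0.10).

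Of 5 genes of mitotic kinases and their partner *Birc5*, 1 fell, and of 3 genes of spindle motors and assembly, 2 fell. *Plk1*, a kinase of centrosomes and the spindle (chr7:122159439-122169873), was at 5.03, 5.37 and 5.22 in the *Pax9*-null and 5.63, 5.59 and 5.44 in the wild-type libraries, 78.8% of wild-type (-0.34 ± 0.11, adjusted p = 0.0715). *Tpx2*, which activates *Aurka* on the spindle, fell by a similar size (-0.34, adjusted p = 0.0870), and was at -0.22 without wild-type 1 (adjusted p = 0.146). *Kif20a*, a kinesin of cell division, was at 5.39, 5.59 and 5.57 against 6.16, 5.76 and 5.74, 77.6% of wild-type (-0.37 ± 0.13, adjusted p = 0.0923). In all 3 genes the groups did not overlap. In *Kif20a*, 29.3% of the exon bases are shared with *Cdc23* on the other strand, and without wild-type 1 its value was -0.23 (adjusted p = 0.157). *Kif23*, *Aurka* and *Aurkb* were at -0.11, -0.11 and -0.01, *Ttk* at 0.02, and *Birc5*, a subunit of the Aurora B complex, at 0.19 (adjusted p = 0.167).

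Of 6 genes of the spindle checkpoint and of the anaphase-promoting complex, 1 rose and 2 fell. *Cdc20*, which activates that complex, fell to 81.5% of wild-type (-0.30 ± 0.09, adjusted p = 0.0633), and the checkpoint kinase-like gene *Bub1b* to 84.2% (-0.25, adjusted p = 0.0961). *Bub1*, its relative, rose: it was at 6.40, 6.26 and 6.38 in the *Pax9*-null and 6.08, 6.15 and 6.13 in the wild-type libraries (0.23 ± 0.08, adjusted p = 0.0898). *Mad2l1* was at 5.07, 4.94 and 4.96 against 4.70, 4.84 and 4.78. It lay just outside the threshold (0.22, adjusted p = 0.101), but was at 0.05 with the trends removed. The groups of these 4 genes did not overlap. *Bub3* was at 0.09 and *Ube2c* at 0.05.

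The largest differences of the list had the widest errors. *Mki67*, which encodes the proliferation antigen Ki-67 that coats mitotic chromosomes (chr7:135689784-135716361), was at 3.69, 4.22 and 3.88 in the *Pax9*-null and 6.27, 4.20 and 4.73 in the wild-type libraries, 45.3% of wild-type (-1.14 ± 0.47, adjusted p = 0.126). *Cenpe*, a motor of the kinetochore, was at 3.57, 3.77 and 3.43 against 5.33, 3.89 and 4.08 (-0.85 ± 0.34, adjusted p = 0.122). *Cenpf*, another kinetochore protein, was at 2.90, 3.30 and 2.97 against 4.77, 3.28 and 3.67 (-0.85 ± 0.34, adjusted p = 0.123). In each gene wild-type 1 stood far above the other 5 libraries: it held 9877 reads of *Mki67*, where the other libraries held 1501 to 3368. Without wild-type 1 the values were -0.54 (adjusted p = 0.129), -0.40 (0.103) and -0.42 (0.152), and without wild-type 2 all 3 were called, at -1.58 (0.0528), -1.12 (0.0678) and -1.16 (0.0547). Wild-type 2 lay inside the *Pax9*-null range for *Mki67* and *Cenpf* and just above it for *Cenpe*. The third kinetochore gene, *Ndc80*, was at 0.09, and of the 3 kinetochore genes 0 were called (2 at an unadjusted p under 0.05, limma).

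The other genes of chromosome structure had smaller differences. *Top2a*, a topoisomerase that untangles sister chromosomes and a frequent marker of cycling cells, was at 7.02, 7.05 and 6.96 against 7.34, 6.98 and 7.06, and overlapped (-0.11, adjusted p = 0.497), with a value of -0.01 without wild-type 1. *Ncapg*, a condensin subunit, rose: it was at 5.13, 5.06 and 5.08 against 4.91, 4.87 and 4.83, 117% of wild-type (0.22 ± 0.07, adjusted p = 0.0808). For the members given in every library, the exact permutation test of 3 against 3 embryos cannot give a two-sided p below 0.1, which is the value of each member whose groups do not overlap.

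The fold change of a member went with the length of its exons. In the 19 members with the shortest exons (1465 to 3495 bases in GENCODE M21), 13 were higher in *Pax9*-null embryos, 5 were called higher and 2 lower, and the median was 0.14. In the 19 with the longest exons (6219 to 15433 bases), 4 were higher, 1 was called in each direction, and the median was -0.11. The rank correlation of fold change with exon length was -0.41 over the 58 members, -0.58 over the 34 G1/S and -0.16 over the 24 G2/M members, and -0.40 over 13524 genes. With GC content it was -0.34, -0.43, -0.36 and -0.44, respectively. These points share the same 6 libraries and are not independent. For 6 members, *Cdk2* and *Ndc80* among them, the deposited values held whole reads only at an exon length other than that of GENCODE M21. With lengths recovered from the values, 17 of the 19 shortest and 17 of the 19 longest were the same members, 12 and 4 were higher, the medians were 0.09 and -0.11, and the correlation with length was -0.42 over the 58 members. The difference between the 19 longest and the 19 shortest was -1.30, -1.15 and -1.36 in the *Pax9*-null and -0.60, -1.17 and -1.06 in the wild-type libraries, so wild-type 1 was again the distant library and wild-type 2 lay within the *Pax9*-null range.

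**Figure D3:**
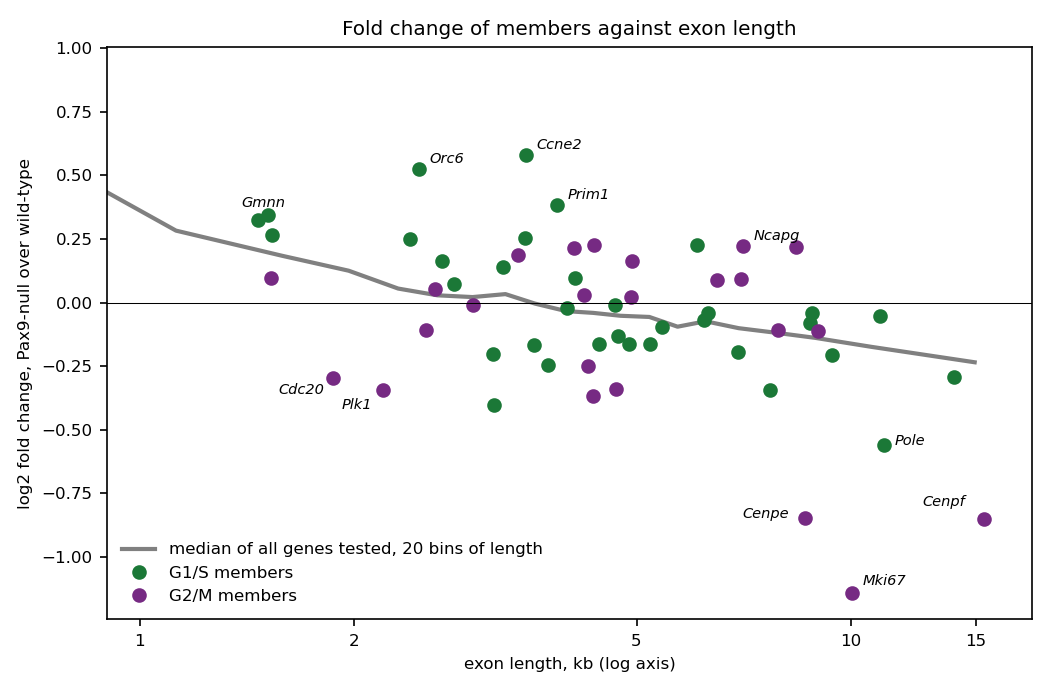
Log2 fold change of the G1/S (green) and G2/M (purple) members against GENCODE M21 exon length in kilobases (log axis), with the median of all genes tested in 20 bins of length (grey line). The line falls from above 0 for short genes to below 0 for long ones, and *Mki67*, *Cenpe*, *Cenpf*, *Pole*, *Plk1* and *Cdc20* lie well below it, *Orc6*, *Ccne2*, *Prim1* and *Ncapg* above it.

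Once the dependence on exon length and GC content had been taken out of each library, 0 of the 58 members were called by limma, where 2.47% of all genes were. At an unadjusted p under 0.05 stood 21 members (8 G1/S and 13 G2/M), and 2798 of all 13524 genes. The fold changes kept their sign in 38 members. The median of the G1/S members became 0.02 and that of the G2/M members -0.14, with 20 of 34 and 7 of 24 above 0. *Plk1*, *Tpx2*, *Kif20a* and *Cdc20* hardly moved, at -0.27, -0.34, -0.37 and -0.30 (adjusted p between 0.113 and 0.199), and *Mki67*, *Cenpe* and *Cenpf* were at -0.97, -0.89 and -0.72. The G1/S members with the largest values shrank: *Ccne2* to 0.12, *Orc6* to 0.29, *Prim1* to 0.20 and *Pole* to -0.18. *Rfc4*, *Ncapg* and *Bub1*, which had been called higher, turned to -0.16, -0.16 and -0.04. *Gmnn*, *Ccnd2* and *Mcm3* came to 0.03, -0.03 and -0.14. With the recovered lengths, an alternative chosen after the data were seen, 0 members were again called by limma, where 2.99% of all genes were. At an unadjusted p under 0.05 were 19 members and 2927 of 13524 genes. *Cdk2* moved from 0.06 to -0.18 and *Ndc80* from -0.04 to -0.22. The *Pax9*-null minus wild-type difference in the balance of the phases was -0.21 with GENCODE M21 lengths and -0.22 with recovered lengths. The source of the trends was not tested.

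**Figure D4:**
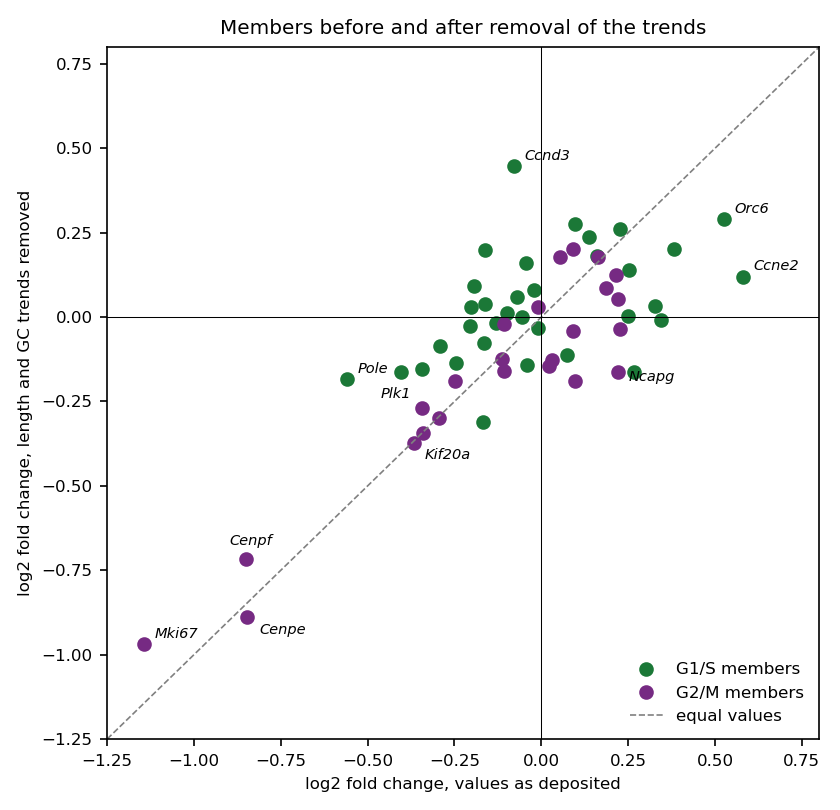
Log2 fold change of each member from the deposited values (horizontal axis) and with the dependence on length and GC content taken out (vertical axis); green, G1/S; purple, G2/M; the broken line marks equal values. *Mki67*, *Cenpe*, *Cenpf*, *Plk1* and *Kif20a* stay near the line, *Ccne2*, *Orc6* and *Pole* move towards 0, and *Ncapg* changes sign.

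Fold changes were also set beside the promoter motifs. Of the 15 G2/M members with CHR letters, 7 had higher and 8 lower levels in *Pax9*-null embryos, and *Cdc20* and *Ncapg*, with 1 CHR match each, changed in opposite directions. Of the 11 G1/S members with an E2F motif, 10 had lower levels, of which 9 did not pass the test, and 1, *Orc1*, was called higher. Their median log2 fold change was -0.10, against 0.11 for the 14 G1/S members with a promoter but no E2F motif. With the trends removed these medians were 0.03 and 0.05, and 4 of the 11 were lower. For the 15 members with CHR letters the median went from -0.11 to -0.16, with 12 lower. For the 5 G2/M members with a promoter but no CHR letters it went from 0.19 to -0.04, with 3 lower. The median of all 24 G2/M members was then -0.14.

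Further genes of the same pathways, taken from wider lists, also split in direction. Of 36 other replication genes, 12 rose and 7 fell (52.8%, where 26.7% of all genes were called), with a median of 0.05. They included *Rpa3*, of the protein that covers single-stranded DNA (0.79, adjusted p = 0.0420), which rose. They also included *Clspn*, of the replication checkpoint (-0.68, adjusted p = 0.0538), *Rfc1*, the large subunit of the clamp loader (-0.66, adjusted p = 0.0898), and *Chaf1a*, which helps to lay histones on new DNA (-0.64, adjusted p = 0.0422), all of which fell. Of 41 other mitosis genes, 3 rose and 8 fell (26.8%), with a median of -0.09. The largest were *Ncapd2*, of condensin (-0.63, adjusted p = 0.0359), *Incenp*, of the Aurora B complex (-0.58, adjusted p = 0.0426), and the kinesin *Kif4* and the separase *Espl1* (both -0.56, adjusted p = 0.0986 and 0.0379). Without wild-type 1 the value of *Rfc1* was -0.37 (adjusted p = 0.0883) and that of *Kif4* -0.31 (adjusted p = 0.131). With the trends removed *Rpa3* was at 0.03, *Espl1* at -0.05, *Chaf1a* at -0.24, *Ncapd2* at -0.28 and *Incenp* at -0.33, while *Rfc1*, *Clspn* and *Kif4* were at -0.64, -0.50 and -0.50. After removal of the trends 0 of the 36 and 1 of the 41 were called, by limma, with 6 and 15 at an unadjusted p under 0.05, where 2798 of 13524 genes were.

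Of 11 inhibitors of the cycle tested, 1 rose and 1 fell. *Cdkn1b*, an inhibitor of *Cdk2*, was at 4.36, 4.44 and 4.39 in the *Pax9*-null and 3.81, 4.07 and 4.19 in the wild-type libraries, without overlap (0.37 ± 0.11, adjusted p = 0.0650). *Fzr1*, which keeps the anaphase-promoting complex active in G1, was at 3.55, 3.51 and 3.68 against 3.94, 4.07 and 3.94 (-0.40 ± 0.09, adjusted p = 0.0427), also without overlap. With the trends removed their values were 0.19 and 0.00.

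Levels of markers of other cell types differed between the libraries. All 9 erythroid markers were higher in the *Pax9*-null group, with 2 called, and their summed level was 2638 to 4893 RPKM in the *Pax9*-null and 2393 to 2497 RPKM in the wild-type libraries. All 8 markers of postmitotic neurons that were tested were lower, with 2 called, at sums of 62.7 to 89.5 and 95.5 to 177 RPKM, and all 6 endothelial markers were lower, with 2 called, at sums of 37.7 to 53.0 and 44.7 to 87.0 RPKM. Wild-type 1 held the highest endothelial sum and wild-type 3 the highest neuronal sum. Of 9 endoderm markers 0 were called (2 at an unadjusted p under 0.05, limma). Of 8 markers of neural crest and arch mesenchyme 2 were higher and 6 lower: *Twist1* rose (0.35, adjusted p = 0.0399) and *Sox10* fell (-0.59, adjusted p = 0.0828). Of all genes tested 26.7% were called. With the trends removed 0 markers of these cell types were called by limma (0 erythroid, 5 neuronal and 1 endothelial at an unadjusted p under 0.05). Of the 9 erythroid markers 7 were then higher, and the called *Hbb-bh1* went from 0.78 to -0.11. Higher values were then seen for 1 of the 8 neuronal and 0 of the 6 endothelial markers, and *Twist1* and *Sox10* were at 0.33 and -0.34. The part of these cell types in the values of the replication and mitosis genes was not tested.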

How the data were processed

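Pharyngeal RNA of 6 embryos was sequenced, 3 for each genotype. Per the study's methods, adaptors were trimmed, unique and non-redundant reads were kept and sub-sampled towards the smallest library, and reads were aligned to GRCm38 and counted on Ensembl 81 genes. The submitters' processing notes name Trimmomatic 0.32, STAR 2.5.1a and featureCounts 1.5.1. The labels give a library protocol for sorted cells that differs from the methods of the study, which were followed here. The authors deposited 1 table of log2 RPKM values; how these were computed from counts is not given in the sources used here.

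From the deposited log2 values, whole reads were recovered with 0.5 read added and GENCODE M21 exon lengths for 82.7% of values (within 0.05 read). All values of a member were whole at that length for 52 of the 58, and at another length for the other 6 (*Cdk1*, *Cdk2*, *E2f3*, *Kif20a*, *Ndc80* and *Rfc4*). These reads gave depths only, not a test. Counting used default settings, which ignore strand. Of the members, 12 share at least 10% of their exon bases with another gene, among them the called *Ccne2*, *Orc1*, *Rfc4*, *Ncapg* and *Kif20a*. Strand was not used to assign reads in such bases, and whether they were counted for either gene was not tested.

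Genes averaging 0.5 RPKM or more were tested with limma 3.58.1 in R 4.3.3 (eBayes with a trend, two-sided), with Benjamini-Hochberg adjustment over all 13547 genes and a threshold of 0.1, after the study. Errors of fold changes are limma's standard errors. Length and GC trends were removed in each library by loess (span 0.3, degree 2). The limma script was tested on simulated data. Promoters were taken from RefSeq (GRCm38.p6).

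Same-numbered libraries did not deviate together (correlations of -0.02, -0.17 and 0.26), so numbers were not used as pairs. The members, their phases and all lists were chosen with earlier results of these data known. Values in every library are given for the 4 largest rises and falls of each phase, for the helicase, cyclin D, cyclin E and E2f families, and for *Mki67*, *Pcna*, *Top2a*, *Ccnb1* and *Cdk1*. Up to 4 genes of other lists were named by the largest change among those called, and *Twist1* and *Sox10* likewise.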

Additional observations from a re-analysis of the deposited data

How the results depend on the processing

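The number of members called depended on the test and on single embryos more than on filters or added constants. With the replicate block, 2 G1/S and 0 G2/M members were called by limma (7 and 7 at an unadjusted p under 0.05). Of all 13547 genes, 1377 were called in that fit and 3902 stood at that unadjusted level. The replicate numbers do not pair the embryos. Without a trend in eBayes the counts were 4 and 0 (8 and 7 unadjusted), beside 2818 (4559 unadjusted) of all 13547 genes. At a threshold of 0.05 they were 1 and 0, and with length and GC trends removed 0 and 0 on either set of exon lengths. Leaving out 1 library at a time gave 0 to 9 G1/S and 0 to 6 G2/M calls. The median log2 fold change of G1/S members was -0.014 with centring, -0.16 with quantile normalization and 0.0211 with trends removed (0.0330 with recovered lengths), and that of G2/M members -0.12 with quantile normalization and -0.14 with trends removed on either set of lengths. The *Pax9*-null minus wild-type difference in the balance of the phases stayed below 0 in every setting, at -0.03 to -0.22. Centring moved the median of all genes to 0.03 and quantile normalization to -0.03.

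Signs turned for some members. With trends removed, on GENCODE M21 lengths, the values were *Ccnd3* 0.448, *Cdk2* 0.0586, *E2f2* 0.197, *E2f3* 0.0127, *Cdt1* 0.0294, *Mcm2* 0.0935, *Mcm5* 0.0796, *Mcm7* 0.0385, *Gins1* -0.0100, *Rrm1* 0.00133, *Rrm2* -0.112, *Rfc2* 0.160, *Rfc4* -0.162, *Ccnb1* -0.126, *Ccnb2* -0.189, *Aurkb* 0.0288, *Ttk* -0.146, *Ncapg* -0.164, *Ndc80* -0.0411 and *Bub1* -0.0366. With the lengths recovered from the deposited values, an alternative chosen after the data were seen, those that turned were *Ccnd1* 0.00237, *Ccnd3* 0.466, *E2f2* 0.207, *Cdt1* 0.0391, *Mcm2* 0.105, *Mcm5* 0.0978, *Mcm7* 0.0534, *Rrm1* 0.0110, *Rrm2* -0.0745, *Rfc2* 0.173, *Rfc4* -0.125, *Ccnb1* -0.106, *Ccnb2* -0.152, *Aurkb* 0.0492, *Ttk* -0.133, *Ncapg* -0.156, *Ndc80* -0.220 and *Bub1* -0.0103. With centring they were *Mcm5* 0.0139, *Mcm6* 0.0244 and *Aurkb* 0.0269, with quantile normalization *Cdk4* -0.145, *Rrm2* -0.198, *Pcna* -0.0104, *Ccna2* -0.00896, *Ccnb1* -0.175, *Ccnb2* -0.101, *Cdk1* -0.0238, *Ttk* -0.0131, *Ndc80* -0.0467 and *Ube2c* -0.0581 and with library weights *Gins2* -0.0131. With 1 library left out at a time, the members whose sign turned in at least 1 fit ran *Mcm5* from -0.0905 to 0.0350, *Mcm6* from -0.0401 to 0.0194, *Gins2* from -0.0758 to 0.189, *Rrm2* from -0.0101 to 0.134, *Pola1* from -0.103 to 0.0187, *Aurkb* from -0.0671 to 0.0429 and *Ttk* from -0.0352 to 0.132. With 3 embryos a group, differences as small as most members show could be missed at this depth and spread.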
